A study of Mus musculus with 4 samples.

Results

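Liver zonation was measured in the 2 sections of the DEN+CCl4 mouse model, by comparing capture spots at the pericentral end of a gene score with spots at its periportal end. In each section, spots with at least 500 UMIs and 250 detected genes were ranked by log2((PC + 1)/(PP + 1)), where PC is the summed UMIs of Cyp2e1, Cyp1a2, Oat and Cyp2c29 and PP is the summed UMIs of Cyp2f2, Hal, Sds and Ass1, each per 10000 UMIs of the spot. Each section's ranking was divided into 4 bins of equal size; bin 4, with the highest scores, is called the pericentral bin and bin 1 the periportal bin. The spots were thus chosen by the measured UMIs of these 8 genes. The names describe the score and were not read from tissue images, and no tumour annotation was used. The pericentral bins held 742 spots in DEN30w and 686 spots in DEN22w, as did the periportal bins, so the 4 outer bins held 2856 of the 5714 kept spots of the model and of the 10627 kept spots of the series. The series consists of 4 liver sections measured with Visium, an assay in which a tissue section lies on an array of barcoded spots that capture its messenger RNA, and each captured molecule is counted by a unique molecular identifier (UMI). DEN30w and DEN22w come from a fibrotic model of hepatocellular carcinoma made with diethylnitrosamine (DEN), a DNA-damaging carcinogen, together with carbon tetrachloride (CCl4), a liver toxin. STAM20w and STAM16w come from a model of metabolic steatohepatitis with type 1 diabetes and serve here as the other model. Each time is 1 section, with w read as weeks. Where values come in pairs without a section name, they are those of DEN30w and DEN22w. Strain, sex, dose, the event from which weeks were counted, and whether sections came from separate animals are not given in the sources used here. The p-values therefore cover these sections only. They measure how far differences between bins departed from each other across sections, after the level of each section was taken out. The bins of 1 section entered as separate sums.

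Blood enters the liver lobule at the portal tract and leaves at the central vein, and hepatocytes along this path differ in what they make. Periportal hepatocytes are known for urea synthesis, amino acid breakdown, glucose production and the secretion of plasma proteins, while pericentral hepatocytes are known for glutamine synthesis, bile acid synthesis and cytochrome P450 detoxification. Wnt ligands and R-spondins released by endothelial cells around the central vein maintain the pericentral programme through beta-catenin. DEN and CCl4 are both converted to reactive products by cytochrome P450 enzymes, of which Cyp2e1, a gene of the score, is the best known.

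Spots of the same bin lay together in the tissue. Of the contacts that pericentral spots made with touching kept spots, 46.6% in DEN30w and 46.8% in DEN22w were with other pericentral spots, and 9.34% and 7.34% were with periportal spots. The correlation of the score between touching spots was 0.370 over 8371 pairs in DEN30w and 0.467 over 7814 pairs in DEN22w, and at 4 spot steps it was 0.063 and 0.062, so alike scores extended over a few spots. The bins also differed in depth and in other cells. Pericentral spots had a median of 7822.5 UMIs in DEN30w and 5965 UMIs in DEN22w, against 10732.5 and 9853.5 UMIs in periportal spots. Summed markers of endothelial, Kupffer, macrophage, stellate, bile duct, lymphoid, neutrophil and erythroid cells, 83 genes in all, made up 58.6 and 37.8 UMIs per 10000 in the pericentral bins, against 30.2 and 21.8 per 10000 in the periportal bins. A spot with few UMIs of the 8 score genes has a score near 0 by construction, and the pericentral bin began below 0 in both sections: the last spot inside it scored -0.309 in DEN30w and -0.566 in DEN22w, next to -0.310 and -0.566 just outside. At the other end, the last periportal spot scored -2.003 and -2.550, next to -2.002 and -2.549. The pericentral bin therefore held 120 and 140 spots from the lowest 10% of the section in summed score genes, against 53 and 20 in the periportal bin. Results that change are also given among spots rich in score genes (PC plus PP at or above the section median), among spots poor in other cells' markers (at or below the section median) or among spots matched on depth, with bins drawn again in the first 2 cases. Spots can hold several cells of different types, and the sections shared between 1635 and 2091 spot barcodes per pair, which belong to the printed array.

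**Figure D1:**
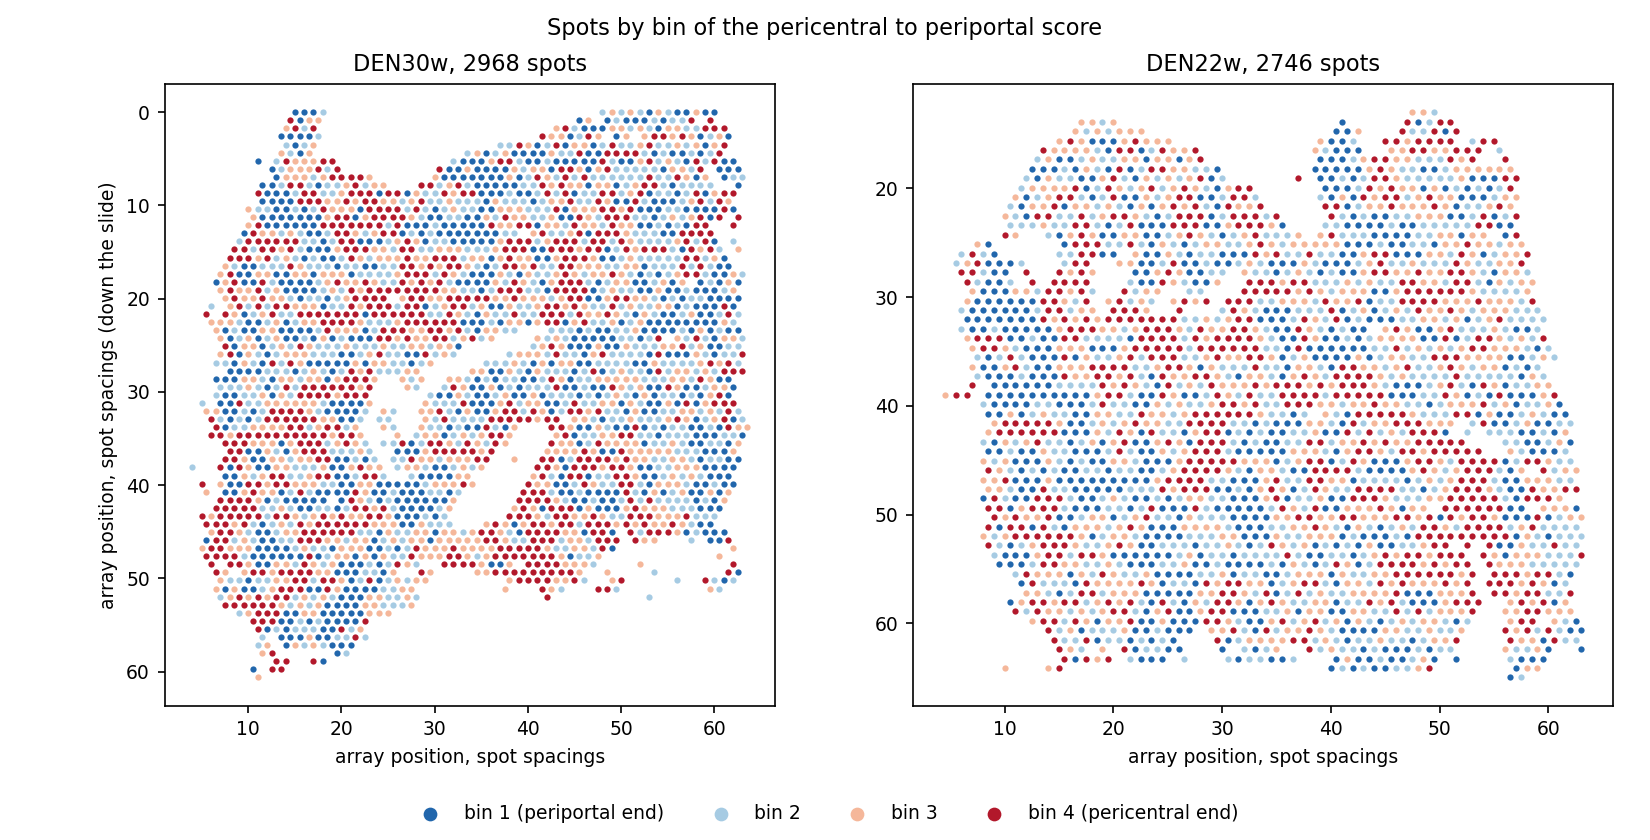
Array positions of the kept spots of DEN30w (left) and DEN22w (right), coloured by bin of the score within each section, with both axes in spot spacings. Bin 4 spots, the pericentral end, formed small patches and strands among the other bins, and 46.6% and 46.8% of their contacts were with their own bin.

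The 8 score genes chose the spots, so their values are a description without a test. Cyp2e1, which metabolizes ethanol and many toxins, had 1532 CPM in the pericentral bin of DEN30w and 2025 CPM in that of DEN22w, against 545 and 532 CPM in the periportal bins. Cyp1a2, a drug-metabolizing P450, had 681 CPM in the pericentral bin of DEN30w and 881 CPM in that of DEN22w, against 307 and 287 CPM in the periportal bins. Oat, ornithine aminotransferase, was at a much lower level in DEN22w than in DEN30w, with 401 CPM in the pericentral bin of DEN30w and 66.5 CPM in that of DEN22w, against 157 and 27.0 CPM in the periportal bins. At the periportal end, Cyp2f2 had 412 CPM in the pericentral bin of DEN30w and 771 CPM in that of DEN22w, against 1141 and 1978 CPM in the periportal bins. Hal, which starts histidine breakdown, had 146 CPM in the pericentral bin of DEN30w and 205 CPM in that of DEN22w, against 469 and 616 CPM in the periportal bins. Sds, serine dehydratase, had 473 CPM in the pericentral bin of DEN30w and 618 CPM in that of DEN22w, against 1887 and 2307 CPM in the periportal bins. Ass1 had 1591 and 1659 CPM pericentrally, against 3465 and 3997 CPM periportally, and Cyp2c29 had 283 and 394 CPM, against 136 and 109 CPM. Pericentral spots thus still held periportal score RNA. Their median PC and PP were 30.8 and 26.9 per 10000 in DEN30w and 32.4 and 32.0 in DEN22w. CPM here are UMIs per 1000000 summed UMIs of a bin, scaled by TMM factors, with the 8 score genes left out of the total and of every test.

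Across the other genes, zonation was broad. Of 12775 genes tested with edgeR's quasi-likelihood test on UMIs summed per section and bin, 1366 (10.7%) were higher and 1419 (11.1%) lower in the pericentral bins at a Benjamini-Hochberg adjusted p under 0.05. Of these 2785 genes, 2762 had the same sign of the ratio in both sections. The test used these same sections, so that agreement follows largely from the call. Among genes reaching 50 CPM in at least 1 outer bin, called or not, 2406 of 3093 had the same sign. Over called genes of any abundance, the median log2 difference was 0.80 among those higher and -0.38 among those lower, and 449 against 96 differed by at least 2-fold. Abundant genes were split otherwise: among called genes at 50 CPM or more in an outer bin of each section, with the same sign in both, 246 were higher and 923 lower. The split between directions depends on scaling. TMM raised the effective depth of the pericentral sums by 0.21 (DEN30w) and 0.17 (DEN22w) on the log2 scale, and without it 3292 genes were higher and 555 lower. Small differences in either direction are therefore relative to the typical gene. With pericentral and periportal spots matched in pairs on depth, 971 genes were higher and 961 lower. When each spot was placed by the score of its touching neighbours and not by its own UMIs, 1166 were higher and 1271 lower. Among spots rich in score genes the counts were 594 and 611, and DESeq2 called 500 and 746. In such sums, fewer cells of a type and less RNA per cell cannot be told apart. The 15 genes named as highest and the 15 named as lowest changed in the same direction at every step between bins 1, 2, 3 and 4 in both sections. They were chosen for large differences between bins 4 and 1 in these same sums, which makes ordered steps likely. Such steps were not counted over other genes.

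**Figure D2:**
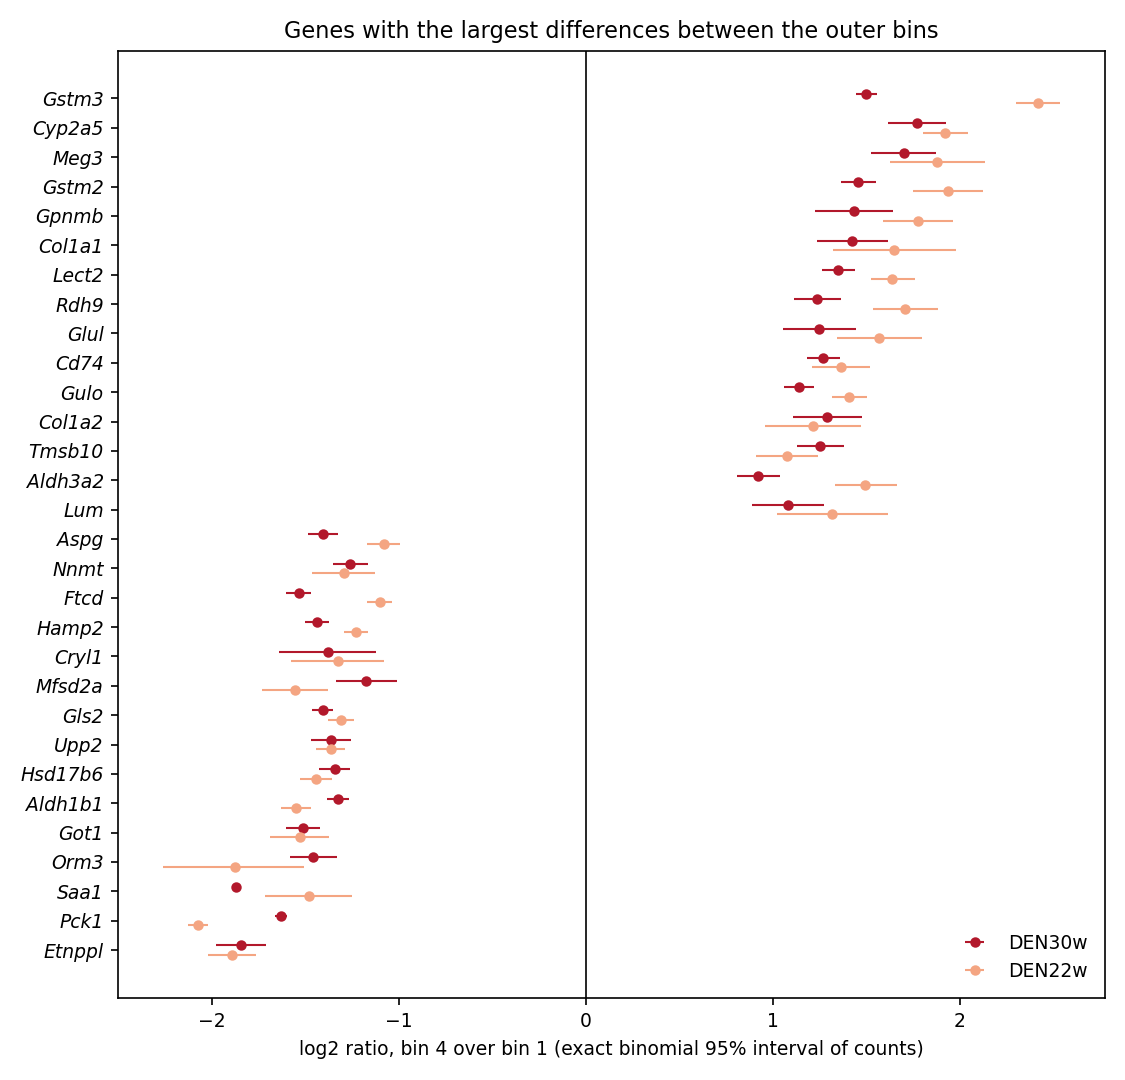
Log2 ratio of bin 4 over bin 1 in DEN30w (dark) and DEN22w (light) for the 15 genes named as higher and the 15 named as lower in the pericentral bins, with exact binomial 95% intervals that cover counting error only. The rule that named these genes required the same side of 0 in both sections. Ratios ran from 2.42 for Gstm3 in DEN22w to -2.08 for Pck1 in DEN22w.

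The Wnt-dependent genes of the central vein rim were higher at the pericentral end. Of 14 tested members of the Wnt target list, 11 were higher and 0 lower, with a median log2 difference of 1.31 against -0.01 over all genes. Glul, Rhbg, Slc1a2, Lhpp, Axin2, Lgr5 and Tbx3 are also on the pericentral list. Glul, glutamine synthetase, which is normally made in a thin layer of hepatocytes around the central vein, had 85.3 CPM in DEN30w and 109 CPM in DEN22w in the pericentral bins, against 35.9 and 36.7 CPM in the periportal bins of the same sections. Glul was higher by 1.39 ± 0.08 (log2 difference with its SE, adjusted p = 2.57e-13 by edgeR). Over bins 1 to 4, Glul had 35.9, 37.3, 54.1 and 85.3 CPM in DEN30w and 36.7, 44.3, 63.5 and 109 CPM in DEN22w, so most of its increase lay in the last step. Its level was low beside the other model. In STAM20w and STAM16w, scaled over all sections together, Glul had 937 and 1167 CPM pericentrally, against 162 and 321 CPM periportally. The difference in level between models was not tested. Tbx3, a transcription factor, had 34.3 and 35.7 CPM pericentrally, against 14.1 and 10.1 CPM periportally (log2 difference 1.48 ± 0.15, adjusted p = 7.24e-09, edgeR). Notum, a secreted Wnt inhibitor, had 45.2 and 62.2 CPM pericentrally, against 18.5 and 24.9 CPM periportally, and Rnf43, a ligase that removes Wnt receptors, had 19.5 and 36.7 CPM pericentrally, against 9.81 and 15.7 CPM periportally. Both were higher, by 1.302 ± 0.10 and 1.11 ± 0.13 on the log2 scale. Axin2, a feedback inhibitor of the pathway, was higher by 1.18 ± 0.17. Lgr5, a receptor for R-spondins, was rare, with 72 and 21 UMIs pericentrally, against 19 and 4 UMIs periportally, and was higher by 2.19 ± 0.31. Znrf3, Tcf7 and Tcf7l2 did not pass the test, with log2 differences of 0.35, 0.46 and -0.22.

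Ligands and modulators of the pathway were near the limit of detection, and 5 of 7 tested were higher in the pericentral bins and 0 lower. Wnt2 had 56 and 44 UMIs pericentrally, against 30 and 22 UMIs periportally, and was higher by 1.20 ± 0.25 (edgeR adjusted p = 5.49e-04). Wnt9b, with Wnt2 a ligand of central vein and sinusoidal endothelium, had 35 and 25 UMIs pericentrally, against 12 and 10 UMIs periportally, and was higher by 1.67 ± 0.36. Rspo3, the R-spondin of the central vein, had 48 and 18 UMIs pericentrally, against 18 and 18 UMIs periportally, and was higher by 1.08 ± 0.31, with the larger ratio in DEN30w. Among spots poor in other cells' markers 4 of these genes were tested and 0 passed. That selection removes the spots richest in endothelial and stellate markers.

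Ammonium disposal separated by route. Beside Glul, the ammonium transporter Rhbg had 26.0 and 43.5 CPM pericentrally, against 10.6 and 13.5 CPM periportally, and the neutral amino acid carrier Slc1a4 had 31.4 and 27.8 CPM pericentrally, against 14.4 and 9.32 CPM periportally, and both were higher, by 1.49 ± 0.13 and 1.28 ± 0.14. Slc38a3, a glutamine transporter, ran the other way with 1024 and 1304 CPM pericentrally, against 2031 and 2077 CPM periportally (log2 difference -0.83 ± 0.06, adjusted p = 7.57e-12, edgeR). Gls2, the liver glutaminase that releases ammonium from glutamine, had 411 CPM in DEN30w and 467 CPM in DEN22w in the pericentral bins, against 1092 and 1157 CPM in the periportal bins of the same sections. It was lower, at a log2 difference of -1.36 ± 0.05 (edgeR adjusted p = 5.16e-17), opposite to Glul. Of 9 tested urea cycle genes, 7 were lower and 1 was higher. Cps1, the entry enzyme, had 1883 and 1882 CPM pericentrally, against 2920.1 and 3219.6 CPM periportally (-0.70 ± 0.05). Arg1, arginase, had 717 and 738 CPM pericentrally, against 1464 and 1466 CPM periportally (-1.01 ± 0.05), and Asl, argininosuccinate lyase, had 429 and 612 CPM pericentrally, against 952 and 1228 CPM periportally (-1.08 ± 0.05). Glud1, glutamate dehydrogenase, was the member that was higher, by 0.15 ± 0.05, and Nags had 81.2 and 96.6 CPM pericentrally, against 82.0 and 99.6 CPM periportally, and did not pass.

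Of 30 tested pericentral hepatocyte genes, 28 were higher and 2 were lower, with a median log2 difference of 1.11. Lect2, a hepatocyte-secreted protein and known beta-catenin target, had 432 CPM in DEN30w and 411 CPM in DEN22w in the pericentral bins, against 169.7 and 132 CPM in the periportal bins of the same sections. It was higher by 1.48 ± 0.07 (edgeR, adjusted p = 6.52e-16). Its upstream sequence is shown because it is the 1 named pericentral gene whose promoter window held the full TCF/LEF core CTTTGATC; capitals mark that core, which lies on the opposite strand and begins at position -33 from the start that the promoter table uses. The RefSeq record of the gene itself reaches further, to 56548559, inside the printed stretch. The 250 bases are chr13:56548539-56548788 of GRCm38.p6, minus strand, from RefSeq.
Lect2: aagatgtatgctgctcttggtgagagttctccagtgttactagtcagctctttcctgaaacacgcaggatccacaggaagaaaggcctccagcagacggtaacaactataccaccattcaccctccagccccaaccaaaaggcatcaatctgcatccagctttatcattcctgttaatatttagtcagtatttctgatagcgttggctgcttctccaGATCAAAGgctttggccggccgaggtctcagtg
Among 27025 genes with a RefSeq promoter window, from 250 bases before to 50 bases after a start, 294 (1.09%) held CTTTGATC on either strand, and so did 1 of 13 matched genes named as lower, Upp2. The shorter core CTTTGA was in 18.2% of these genes, in 3 of 11 matched genes named as higher and in 4 of 13 named as lower. A match of letters is a description and not a binding site.

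The 2 lower members were Slc22a3, an organic cation transporter, with 37 and 36 UMIs pericentrally, against 80 and 71 UMIs periportally (log2 difference -0.79 ± 0.21), and Sult5a1, a sulfotransferase, with 103 and 70 UMIs pericentrally, against 232 and 224 UMIs periportally (-1.13 ± 0.15). Cyp2a5, a P450 that oxidizes coumarin and nicotine (chromosome 7, 26835339 to 26843264), had 174 CPM in DEN30w and 456 CPM in DEN22w in the pericentral bins, against 51.0 and 120.3 CPM in the periportal bins of the same sections, a log2 difference of 1.85 ± 0.08 (edgeR adjusted p = 8.28e-17). Its level in DEN22w was above that in DEN30w in each bin, while its ratio was alike in both sections, 1.77 in DEN30w and 1.92 in DEN22w. Rdh9, a retinol dehydrogenase, had 202 and 196 CPM pericentrally, against 85.8 and 60.1 CPM periportally (1.44 ± 0.09). Gulo, the last enzyme of vitamin C synthesis, had 463 and 562 CPM pericentrally, against 210.3 and 212 CPM periportally (1.27 ± 0.07). Aldh3a2, which oxidizes fatty aldehydes, had 199.99 and 195 CPM pericentrally, against 105 and 69.3 CPM periportally (1.17 ± 0.08). Rgn and Pon1 were higher by less, with log2 differences of 0.83 and 0.52.

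Detoxification genes did not move as one block. Among drug-metabolizing P450 genes and their regulators, 12 of 28 tested were higher and 10 were lower. Cyp2c37, Cyp2c50 and Cyp2c55 were higher by 1.32 ± 0.14, 0.88 ± 0.08 and 1.35 ± 0.13 on the log2 scale. Cyp2b10, the classic target of the xenobiotic receptor CAR, was lower, with 15.8 and 13.8 CPM pericentrally, against 34.3 and 35.0 CPM periportally (log2 difference -1.20 ± 0.12, adjusted p = 4.90e-09, edgeR), while Nr1i3, which encodes CAR, had 127 and 169.9 CPM pericentrally, against 70.7 and 68.4 CPM periportally, and was higher (1.06 ± 0.08). Cyp3a13, Cyp2j5 and Cyp2d26 were lower, at a log2 difference of -0.79 ± 0.07, -0.61 ± 0.06 and -0.46 ± 0.05. Ahr, the receptor for dioxins, was higher by 0.90 ± 0.12.

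Glutathione transferases divided too, with 8 of 21 tested higher and 8 lower. The mu class supplied the largest difference among the 30 genes named by size: Gstm3 (chromosome 3, 107963696 to 107969174) had 1161 CPM in DEN30w and 629.5 CPM in DEN22w in the pericentral bins, against 410.3 and 118 CPM in the periportal bins of the same sections. It was higher by 1.92 ± 0.12 (edgeR, adjusted p = 4.38e-13), and the steps over bins 1 to 4 were 118, 172, 343 and 629.5 CPM in DEN22w. Gstm2 had 397 and 189.7 CPM pericentrally, against 145 and 49.6 CPM periportally (1.64 ± 0.08), and Gstm1, the most abundant, had 2748 and 2721 CPM pericentrally, against 1517 and 1003 CPM periportally (1.15 ± 0.08). Gsta3 was higher by 0.70 ± 0.05. Gstt3 was lower, with 41.7 and 38.9 CPM pericentrally, against 90.7 and 68.4 CPM periportally (-1.002 ± 0.09), as were Gstk1 (-0.61 ± 0.06) and Gstp1 (-0.42 ± 0.05). Among targets of the oxidant sensor NRF2, 7 of 13 tested were higher and 0 lower, including the heme oxygenase Hmox1 (0.58 ± 0.12), Srxn1 (0.45 ± 0.09) and the epoxide hydrolase Ephx1 (0.44 ± 0.06). DESeq2 called 3 of these 13. Gclc and Gclm, which make glutathione, did not pass, at -0.08 and 0.05. Genes of the Gstm, Cyp2a, Cyp2c, Cyp4a, Mup, Saa, haemoglobin and immunoglobulin families include near-identical copies, among which reads can be divided unevenly, so values of single members are uncertain.

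Bile acid synthesis genes were divided as well. Of 15 tested genes, 4 were higher and 5 were lower. Cyp7a1, the rate-limiting enzyme of the main route, had 118 and 81.8 CPM pericentrally, against 64.6 and 30.6 CPM periportally (log2 difference 1.06 ± 0.10, adjusted p = 5.23e-09, edgeR), and Cyp27a1 was higher by 0.58 ± 0.06. Cyp8b1, which makes cholic acid, was lower, with 56.3 and 145 CPM pericentrally, against 124 and 191 CPM periportally (-0.75 ± 0.11), and so was Nr0b2, a repressor of bile acid synthesis, at -0.71 ± 0.08. Transporters of bile acids and anions were 4 higher and 6 lower of 15. The uptake carrier Slco1b2 was higher (0.71 ± 0.06) and the uptake carrier Slc10a1 was lower (-0.45 ± 0.06). Cholesterol synthesis and uptake genes were mostly higher, 12 of 19 against 2 lower, with a median log2 difference of 0.45. Hmgcs1, an early enzyme of the route, had 199.6 and 221 CPM pericentrally, against 122 and 102 CPM periportally (0.90 ± 0.08). Nsdhl, Cyp51 and Fdps were higher by 0.72 ± 0.10, 0.64 ± 0.09 and 0.56 ± 0.07. Insig1, which restrains the route, was among the lower members, at -0.32 ± 0.06. Without TMM, 17 of the 19 were higher and 0 lower.

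At the periportal end, 27 of 28 tested periportal hepatocyte genes were lower in the pericentral bins and 0 were higher. The exception, Spp2, had 72.8 and 112 CPM pericentrally, against 74.8 and 91.0 CPM periportally, and did not pass. Pck1, phosphoenolpyruvate carboxykinase, the rate-limiting enzyme of gluconeogenesis, had 1052 CPM in DEN30w and 708 CPM in DEN22w in the pericentral bins, against 3256 and 2985 CPM in the periportal bins of the same sections. It was lower, at a log2 difference of -1.84 ± 0.07 (edgeR, adjusted p = 5.16e-17). Its upstream sequence is shown because the cyclic AMP response element of this promoter is a textbook hormone-response site; capitals mark the letters TTACGTCA, which begin at position -93 on the gene's strand. The 250 bases are chr2:173152823-173153072 of GRCm38.p6, plus strand, from RefSeq.
Pck1: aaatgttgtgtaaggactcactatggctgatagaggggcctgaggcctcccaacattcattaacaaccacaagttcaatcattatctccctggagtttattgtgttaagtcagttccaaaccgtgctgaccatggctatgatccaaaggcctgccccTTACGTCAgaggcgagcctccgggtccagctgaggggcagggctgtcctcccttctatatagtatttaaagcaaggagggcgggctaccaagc
TTACGTCA on either strand was in 157 of the 27025 genes with a promoter window (0.581%), in 0 of 11 matched genes named as higher, and in no other of the 13 matched genes named as lower. It was 1 of 14 motifs searched, chosen for display after the search.

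Etnppl, which breaks down phosphoethanolamine (chromosome 3, 130617448 to 130635750), had the lowest log2 difference of the named genes, with 70.4 CPM in DEN30w and 126 CPM in DEN22w in the pericentral bins, against 252 and 469 CPM in the periportal bins of the same sections (log2 difference -1.87 ± 0.07, adjusted p = 6.75e-18, edgeR). Glucose production genes were lower in 6 of 7 tested, with G6pc at 278 and 178 CPM pericentrally, against 496 and 307 CPM periportally (-0.82 ± 0.06) and Fbp1 at 774 and 521 CPM pericentrally, against 1492 and 992 CPM periportally (-0.94 ± 0.05). Their summed level over bins 1 to 4 was 10345, 8288, 6380.1 and 5143 CPM in DEN30w and 9881, 8266, 6195 and 4971 CPM in DEN22w, nearly the same in both sections. Amino acid breakdown followed, with 20 of 22 tested lower and 0 higher. Got1, cytosolic aspartate aminotransferase, had 158 and 86.9 CPM pericentrally, against 450.4 and 250.9 CPM periportally (-1.52 ± 0.06). Ftcd, which ends histidine breakdown, had 284 and 534 CPM pericentrally, against 824 and 1146 CPM periportally (-1.32 ± 0.07), and Gldc, of the glycine cleavage system, had 134 and 168 CPM pericentrally, against 301 and 396 CPM periportally (-1.20 ± 0.06). Prodh and Aldh4a1, of proline breakdown, did not pass, at 0.11 and -0.13.

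Other named lower genes were enzymes and carriers of small molecules. Aldh1b1, a mitochondrial aldehyde dehydrogenase, had 381 and 326 CPM pericentrally, against 954 and 954 CPM periportally (-1.43 ± 0.06). Hsd17b6, a steroid dehydrogenase, had 185 and 287 CPM pericentrally, against 469 and 781 CPM periportally (-1.39 ± 0.06). Upp2, a uridine phosphorylase, had 118 and 362 CPM pericentrally, against 303 and 931 CPM periportally (-1.36 ± 0.06). Mfsd2a, a lysophospholipid carrier, had 52.5 and 70.3 CPM pericentrally, against 118 and 206 CPM periportally (-1.36 ± 0.08). Nnmt, nicotinamide N-methyltransferase, had 162 and 80.7 CPM pericentrally, against 388 and 198 CPM periportally (-1.27 ± 0.06), Aspg, an asparaginase, had 196 and 299 CPM pericentrally, against 520.3 and 632 CPM periportally (-1.25 ± 0.07), and Cryl1 was lower, at a log2 difference of -1.35 ± 0.10.

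Most acute phase genes, which code for plasma proteins that the liver makes more of in inflammation, were lower at the pericentral end. Of 18 tested acute phase genes, 16 were lower and 1, Saa3, was higher (0.65 ± 0.20). Saa1, serum amyloid A, had 3472 CPM in DEN30w and 42.1 CPM in DEN22w in the pericentral bins, against 12708 and 117 CPM in the periportal bins of the same sections. Levels in DEN30w stood far above those in DEN22w in all bins, yet Saa1 was lower in the pericentral bin of each, at a log2 difference of -1.75 ± 0.07 (edgeR, adjusted p = 8.78e-17). Orm3, an orosomucoid, had 84.3 and 15.3 CPM pericentrally, against 232 and 56.1 CPM periportally (-1.54 ± 0.09), and Hpx, hemopexin, had 6293 and 2303 CPM pericentrally, against 10051 and 3582 CPM periportally (-0.66 ± 0.05). The fibrinogen chains Fga, Fgb and Fgg were lower, at a log2 difference of -0.65 ± 0.06, -0.59 ± 0.06 and -0.57 ± 0.06. The summed level of the list was 36575 and 15464 CPM in the pericentral bins of DEN30w and DEN22w, against 67387 and 20839 CPM in the periportal bins. Coagulation genes were lower in 12 of 16 with a median of -0.30, and apolipoproteins in 9 of 14, among them Apoa5 (-0.87 ± 0.05) and Apoc3 (-0.53 ± 0.05), while Apoa1 was higher (0.21 ± 0.05). These smaller differences depend on scaling: without TMM, 6 coagulation genes were lower and 2 higher, and 6 apolipoproteins were lower and 3 higher.

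Complement genes were 11 lower and 4 higher of 21, and without TMM 6 lower and 7 higher. The 4 that were higher were C6 (0.57 ± 0.09) and the C1q chains C1qa, C1qb and C1qc, which macrophages make, at 0.68 ± 0.07, 0.85 ± 0.07 and 0.90 ± 0.09. Major urinary proteins, male-biased carriers of pheromones, were lower in 11 of 13 tested and higher in 0. Mup3 had 1524 and 4622 CPM pericentrally, against 3365 and 8867 CPM periportally (-1.04 ± 0.05) and Mup1 had 168 and 1259.9 CPM pericentrally, against 349 and 2103 CPM periportally (-0.89 ± 0.06). Hepcidin genes were lower too: Hamp, the iron hormone, had 2431 and 4257 CPM pericentrally, against 4372 and 7195 CPM periportally (-0.80 ± 0.05), and Hamp2 had 314 and 563 CPM pericentrally, against 849.7 and 1319.7 CPM periportally (-1.33 ± 0.06). In healthy mouse liver Hamp, Hamp2, Igfbp2 and Cyp8b1 are known as genes of the middle of the lobule, and 4 of the 6 tested genes of that list were lower here and 0 higher.

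Nuclear-encoded subunits of oxidative phosphorylation were lower by small amounts in 21 of 22 tested and higher in 0, with a median of -0.31. Cox6c had 853 and 1183 CPM pericentrally, against 1128 and 1646 CPM periportally (-0.44 ± 0.05) and Uqcrb had 278 and 348 CPM pericentrally, against 364 and 532 CPM periportally (-0.50 ± 0.06). Without TMM 9 were lower, and among spots rich in score genes 11 were lower. Mitochondrially encoded subunits showed no shared difference, with 2 of 13 lower and 0 higher, and among spots rich in score genes 6 of 12 were higher. Lipid droplet genes had no call. Of 11 tested lipid droplet genes, 0 were higher and 0 lower by edgeR at adjusted p under 0.05, and DESeq2 also called 0; Plin2, the droplet coat protein, had 423 and 415 CPM pericentrally, against 455 and 359 CPM periportally. Fatty acid synthesis genes were lower in 7 of 15 and higher in 0, but without TMM 3 were lower and 5 higher. Acly (-0.69 ± 0.07), Srebf1 (-0.61 ± 0.06) and Thrsp (-0.51 ± 0.07) led the lower ones, and Fasn had 315 and 847 CPM pericentrally, against 388 and 717 CPM periportally, with opposite directions in the sections. Fatty acid oxidation genes were 3 higher and 4 lower of 20, with the PPAR-alpha targets Cyp4a10 (0.87 ± 0.09) and Cyp4a14 (0.91 ± 0.15) among the higher, and without TMM 10 higher and 0 lower. Hypoxia genes were 1 higher and 2 lower of 12, with Ndrg1 higher (0.97 ± 0.15) and Vegfa lower (-0.37 ± 0.07). Genes of glycolysis and glucose uptake were 3 higher and 3 lower of 10, with the glucose transporter Slc2a2 lower (-0.26 ± 0.06). Ribosomal protein genes were lower in 1 of 14 and higher in 0, against 12 higher without TMM. The iron handling list, which holds both hepcidins, was lower in 6 of 14 and higher in 0, and without TMM 4 lower and 5 higher. Glucuronosyltransferases and sulfotransferases were 2 higher and 4 lower of 14. Of all genes tested, 10.7% were higher and 11.1% lower, so counts of 1 or 2 members, as for hypoxia genes, are near those shares.

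**Figure D3:**
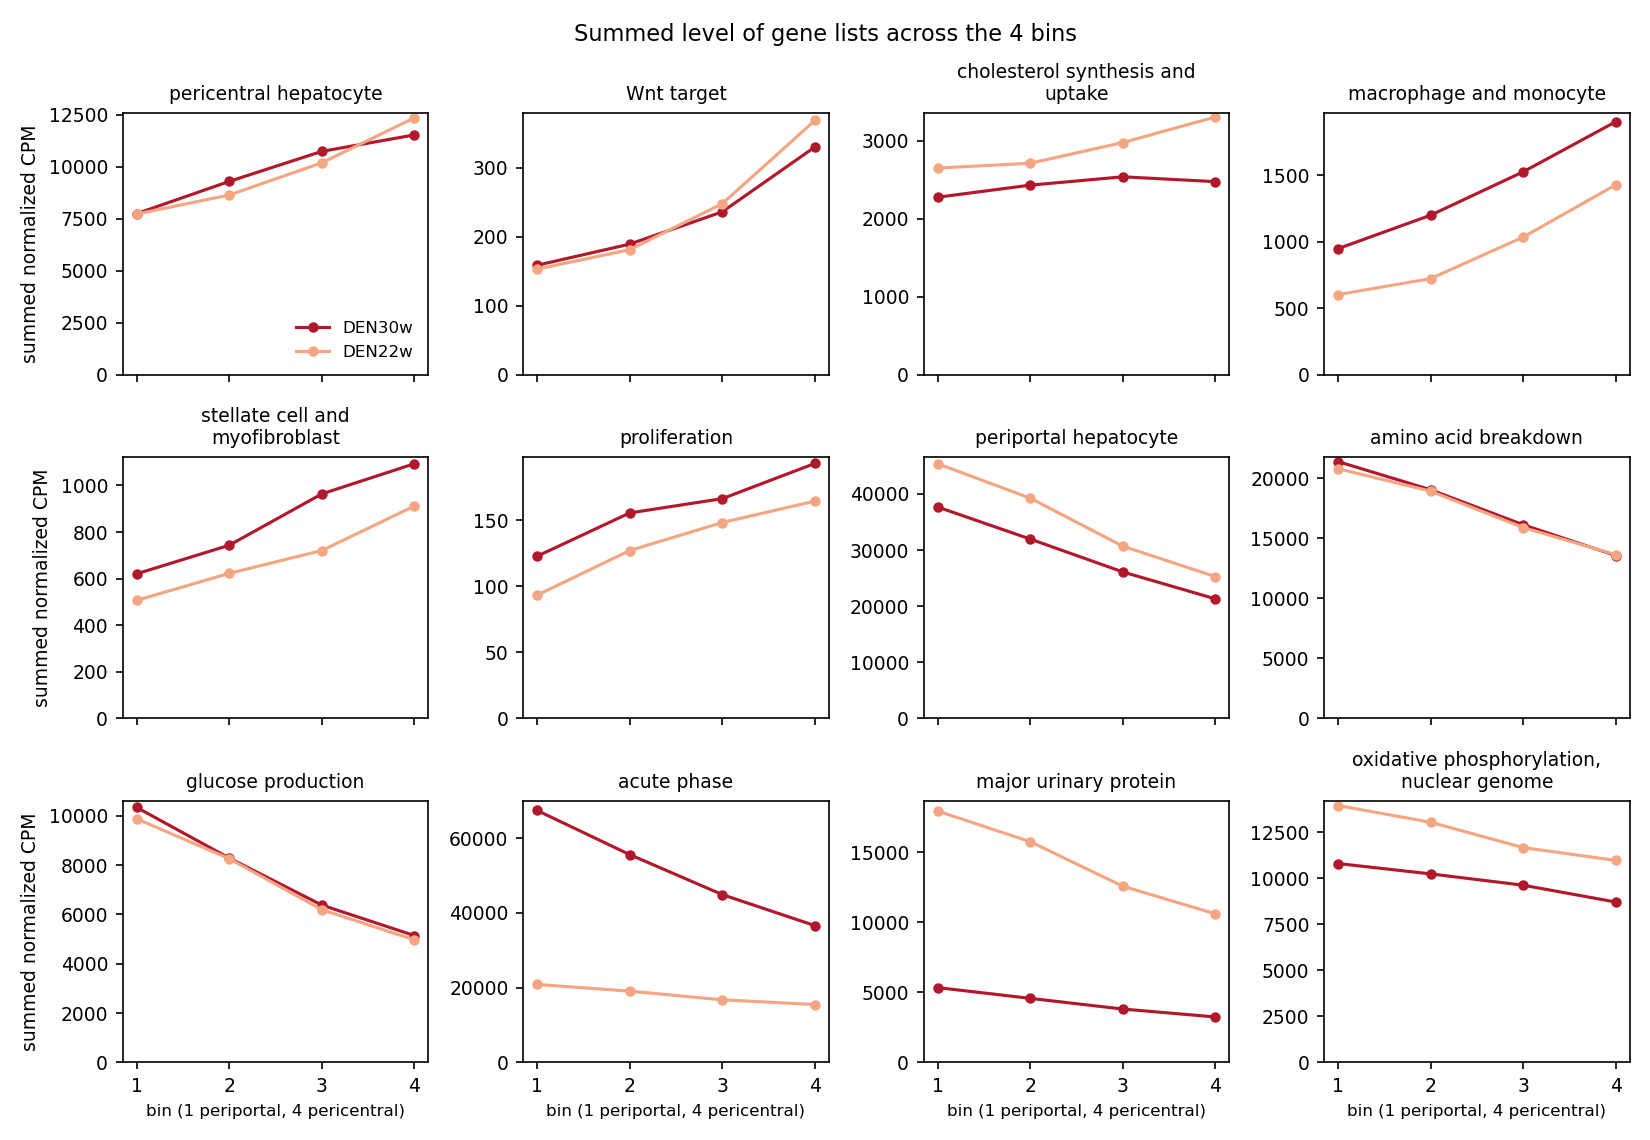
Summed TMM-scaled CPM of 12 gene lists in bins 1 (periportal) to 4 (pericentral) of DEN30w (dark) and DEN22w (light), each axis starting at 0. Wnt target and macrophage sums were highest in bin 4, periportal and glucose production sums were lowest there, and acute phase and major urinary protein sums also stood far apart between the sections.

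Macrophage and scar-forming cell genes were higher in the pericentral bins. All 14 tested macrophage and monocyte markers were higher, with a summed level of 1903 and 1428 CPM in the pericentral bins of DEN30w and DEN22w, against 947 and 602 CPM in the periportal bins. Cd74, the invariant chain of antigen presentation, had 396 CPM in DEN30w and 204 CPM in DEN22w in the pericentral bins, against 164 and 79.2 CPM in the periportal bins of the same sections, a log2 difference of 1.31 ± 0.06 (edgeR, adjusted p = 1.31e-15). Gpnmb, a glycoprotein of lipid-laden macrophages, had 81.0 and 178 CPM pericentrally, against 30.01 and 51.9 CPM periportally (1.62 ± 0.10), and Trem2, a lipid receptor of scar-associated macrophages, had 22.4 and 42.5 CPM pericentrally, against 7.90 and 12.6 CPM periportally (1.63 ± 0.13). Gpnmb and Trem2 were higher in the DEN22w section than in DEN30w at both ends, while Cd74 and Lyz2 were lower. Lyz2, lysozyme, had 622 and 349 CPM pericentrally, against 320.5 and 149.9 CPM periportally (1.07 ± 0.07). Resident Kupffer cell markers were higher in 3 of 9, among them Clec4f (0.53 ± 0.08) and Vsig4 (1.02 ± 0.11), and Timd4 and Fcna did not pass, at 0.20 and 0.05.

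Of 14 tested stellate cell and myofibroblast markers, 11 were higher and 2 were lower, with sums of 1093 and 912 CPM against 621 and 507 CPM for pericentral against periportal bins. Col1a1, the main fibrillar collagen of scar, had 97.0 CPM in DEN30w and 55.0 CPM in DEN22w in the pericentral bins, against 36.1 and 17.6 CPM in the periportal bins of the same sections (log2 difference 1.497 ± 0.10, adjusted p = 3.22e-12, edgeR). Col1a2 had 97.5 and 73.5 CPM pericentrally, against 39.8 and 31.7 CPM periportally (1.26 ± 0.10), Lum, a collagen-binding proteoglycan, had 79.9 and 56.5 CPM pericentrally, against 37.8 and 22.7 CPM periportally (1.16 ± 0.10), and Reln, a stellate cell marker, had 71.7 and 62.9 CPM pericentrally, against 32.9 and 32.0 CPM periportally (1.06 ± 0.09). The contractile genes ran the other way: Acta2, smooth muscle actin, had 93 and 9 UMIs pericentrally, against 175 and 43 UMIs periportally (log2 difference -0.97 ± 0.19, adjusted p = 3.64e-04, edgeR) and Tagln had 63 and 17 UMIs pericentrally, against 112 and 29 UMIs periportally (-0.66 ± 0.22). Endothelial markers were higher in 2 of 14, Stab1 (0.41 ± 0.08) and Eng (0.55 ± 0.09), with Pecam1 at 16.7 and 17.4 CPM pericentrally, against 16.6 and 11.96 CPM periportally, and not past the test. Lymphocyte and plasma cell markers were higher in 7 of 8, of which 6 had the same sign in both sections and DESeq2 called 2. Igkc, an antibody light chain, had 621 and 13.4 CPM pericentrally, against 201 and 7.61 CPM periportally (1.55 ± 0.09), so its level was carried by DEN30w. Bile duct markers were higher in 2 of 9, Epcam with 82 and 14 UMIs pericentrally, against 30 and 16 UMIs periportally, and Mmp7 with 100 and 5 UMIs pericentrally, against 18 and 5 UMIs periportally, with the difference mainly in DEN30w. Neutrophil markers were higher in 1 of 6, Csf3r (0.97 ± 0.21). Erythroid genes were lower in 1 of 5, the heme synthesis gene Alas2 (-0.69 ± 0.06). Of all genes tested, 10.7% were higher and 11.1% lower, so 2 of 14 endothelial markers is near the share over all genes. A single call among 6 neutrophil or 5 erythroid genes is not a result about the cell type.

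Restricting the comparison to spots at or below the section median of these markers, with bins drawn again, left 5 of 14 macrophage, 7 of 14 stellate, 0 of 9 Kupffer and 0 of 4 lymphoid markers higher, and 1 stellate and 1 Kupffer marker lower. That restriction selects on the same genes. The hepatocyte lists changed less under it: 27 of 30 pericentral genes were higher and 25 of 28 periportal genes lower. With bins matched on depth, 14 of 14 macrophage and 11 of 14 stellate markers were higher, and among spots rich in score genes 13 and 10 were. The part of these other cells in differences of single hepatocyte genes was not tested beyond these counts.

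Proliferation genes were higher in 9 of 12 and lower in 0, at low levels. Mki67 had 153 and 73 UMIs pericentrally, against 85 and 39 UMIs periportally (log2 difference 1.09 ± 0.17, adjusted p = 1.86e-05, edgeR), Ube2c had 160 and 63 UMIs pericentrally, against 95 and 36 UMIs periportally (0.97 ± 0.18) and Stmn1 had 37.9 and 33.6 CPM pericentrally, against 20.8 and 15.2 CPM periportally (0.97 ± 0.11), while Pcna had 23.4 and 21.7 CPM pericentrally, against 23.6 and 20.5 CPM periportally, and did not pass. Among spots rich in score genes 2 of 12 passed. Of 13 tested liver tumour and progenitor genes, 8 were higher and 0 lower. Meg3, an imprinted long non-coding RNA (chromosome 12, 109540996 to 109571729), had 133 CPM in DEN30w and 102 CPM in DEN22w in the pericentral bins, against 41.1 and 27.7 CPM in the periportal bins of the same sections (log2 difference 1.77 ± 0.09, adjusted p = 4.93e-15, edgeR). H19, another imprinted RNA, had 107 and 47 UMIs pericentrally, against 38 and 15 UMIs periportally (1.74 ± 0.24), and Afp, alpha-fetoprotein, had 62 and 44 UMIs pericentrally, against 39 and 19 UMIs periportally (1.10 ± 0.25). In spots poor in other cells' markers 2 of 12 passed. Tmsb10, an actin-binding protein of many cell types, was named by size, with 195 and 165 CPM pericentrally, against 81.6 and 78.2 CPM periportally (1.17 ± 0.07).

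**Figure D4:**
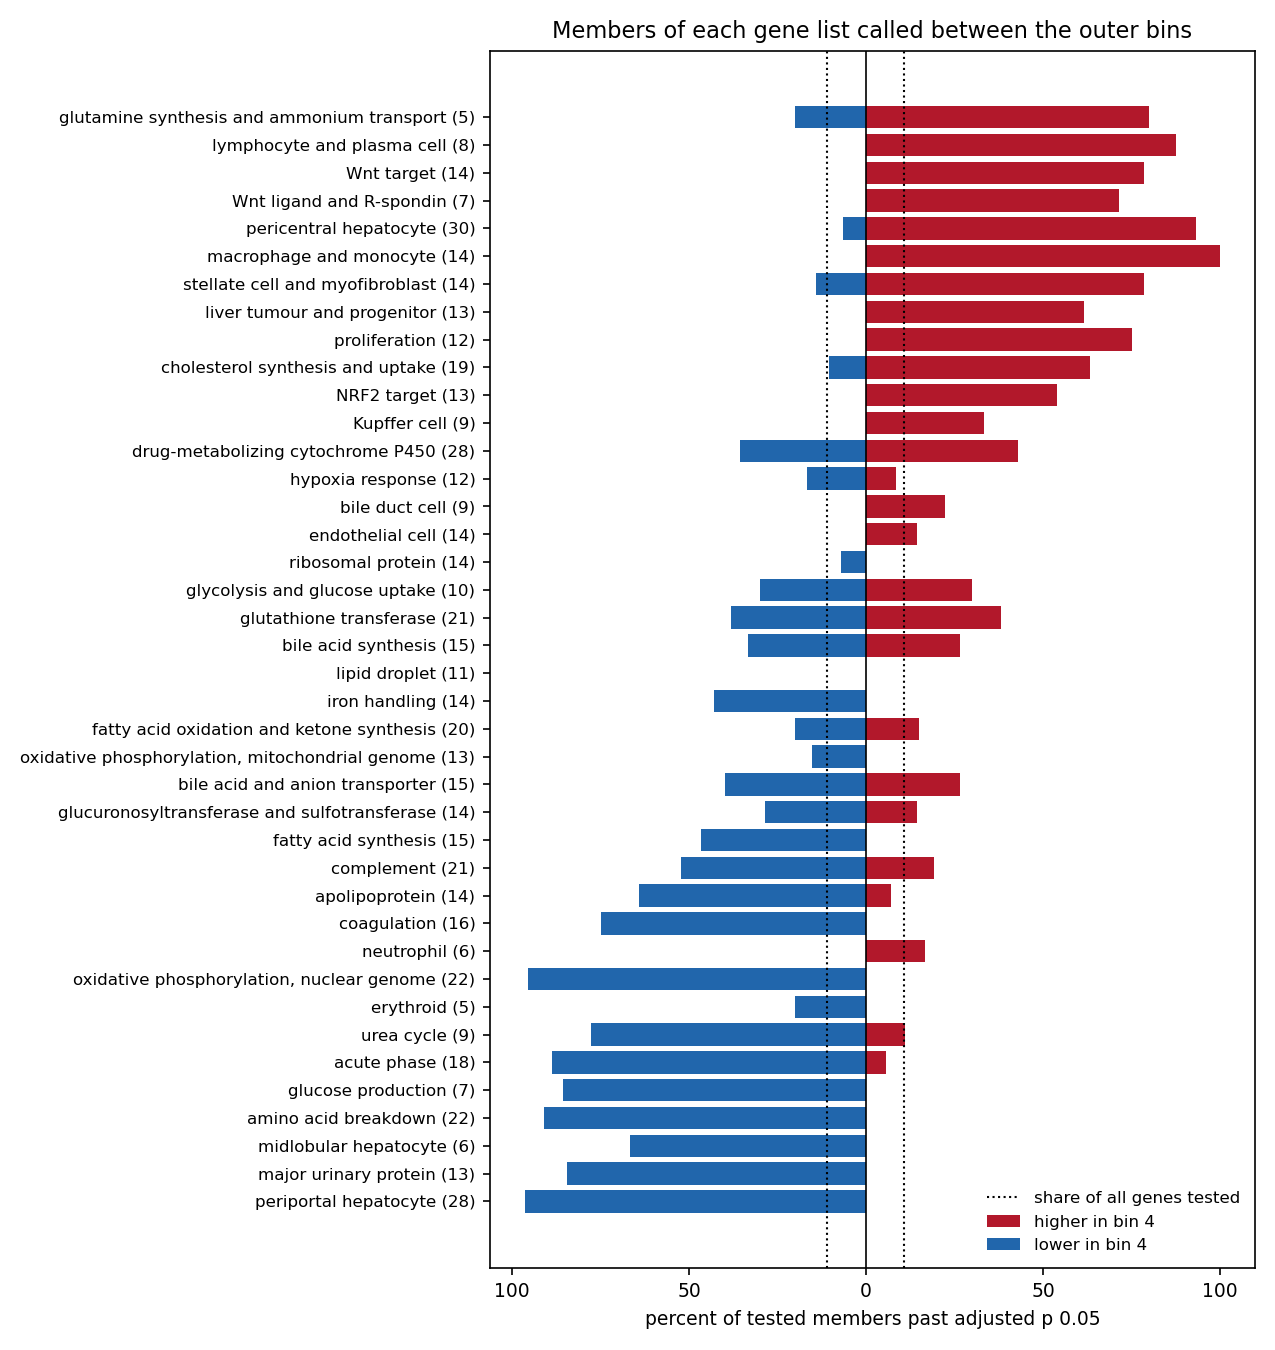
Percent of tested members of each of 40 gene lists that were higher (right) or lower (left) in bin 4 than in bin 1 at adjusted p under 0.05, with the number tested in brackets and dotted lines at the shares of all genes, 10.7% and 11.1%. Lists run from the highest median log2 difference at the top to the lowest at the bottom, with macrophage, pericentral and lymphoid lists largely to the right and periportal, nuclear oxidative phosphorylation and amino acid breakdown lists largely to the left.

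A further contrast asked which genes differed between the middle and the ends, comparing bins 2 and 3 together with the outer bins together. A gene can be higher in this contrast without a peak in the middle of each section. Of 12775 genes, 7 (0.0548%) were higher in the middle by edgeR and 0 were lower, with 501 at an unadjusted p under 0.05, and DESeq2 called 0 in either direction. Igfbp2, a known mid-lobular gene, had 249, 289, 296 and 228 CPM over bins 1 to 4 of DEN30w and 485, 551, 501 and 430.3 CPM in DEN22w. Its middle bins were above both ends in each section, by 0.25 ± 0.04 in log2 (edgeR, adjusted p = 0.0039), but the edgeR call was lost with bins drawn from touching spots (0.16, adjusted p = 0.077), among spots rich in score genes (0.18, adjusted p = 0.27), among spots poor in other cells' markers (0.09, adjusted p = 0.86) and without the section block, and DESeq2 did not call it (0.25, adjusted p = 0.16). The other 6 were Mup7, Cyp2a4 and the haemoglobin genes Hbb-bt, Hbb-bs, Hba-a1 and Hba-a2. Of these, Mup7, Cyp2a4, Hbb-bt and Hba-a2 fell short of the abundance limit for named genes and are listed only as called. Mup7 did not peak in the middle of DEN22w, where it had 631, 627, 510 and 354 CPM over bins 1 to 4. Hba-a1 had 27.8, 84.3, 82.4 and 26.9 CPM in DEN30w and 19.9, 75.8, 17.4 and 25.1 CPM in DEN22w, so in DEN22w bin 2 alone was high. Haemoglobin marks red blood cells, and among spots poor in other cells' markers, which include these genes, the Hba-a1 difference was 0.0079.

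Zonation was alike in the 2 sections for most abundant genes. Among 3093 genes reaching 50 CPM in at least 1 outer bin, 2406 had the same sign, and Pearson's r of the log2 ratios across genes was 0.845, a description in which both sections share the score and genes are not independent. By size alone, 22 genes (0.711%) were at least 2-fold higher and 27 (0.873%) at least 2-fold lower in both sections. With 1 section at each time there is no test between times. The counting intervals of the ratio lay apart for 378 genes (12.2%), and the ratio differed by at least 2-fold upward in DEN30w for 2 genes and downward for 8.

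The 2 upward genes were Marco and Spp1. Marco, a scavenger receptor of Kupffer cells, had 84.0 CPM in the pericentral against 82.7 CPM in the periportal bin of DEN30w, and 14.0 against 39.0 CPM in DEN22w. Its log2 ratio was 0.02 (95% interval -0.13 to 0.17) in DEN30w and -1.48 (-1.89 to -1.08) in DEN22w. Spp1, osteopontin, made by duct cells and activated macrophages, had 184 against 132 CPM in DEN30w and 53.3 against 95.6 CPM in DEN22w, so its direction was opposite in the sections, at 0.47 (95% interval 0.36 to 0.58) in DEN30w and -0.84 (-1.06 to -0.63) in DEN22w. Cyp7b1, of the alternative bile acid route, was periportal in DEN22w and level in DEN30w, at -0.10 (95% interval -0.39 to 0.18) in DEN30w and -0.95 (-1.14 to -0.77) in DEN22w. Mup21 and Ighg2b also met the rule by size, but the Mup21 difference changed sign among spots rich in score genes and Ighg2b had 1 UMI in each outer bin of DEN22w.

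The genes named for a lower ratio in DEN30w than in DEN22w, chosen for the size of that difference, were Lcn2, Mt2, Mt1, Saa2 and Gadd45g. The metallothionein Mt1, which binds zinc and cadmium, had 1849 CPM in the pericentral against 4263 CPM in the periportal bin of DEN30w, and 255 against 227 CPM in DEN22w. Its log2 ratio was -1.20 (95% interval -1.23 to -1.18) in DEN30w and 0.17 (0.06 to 0.28) in DEN22w. Mt2 followed, at -1.10 (95% interval -1.16 to -1.05) in DEN30w and 0.32 (-0.01 to 0.64) in DEN22w. Lcn2, lipocalin 2, an iron-scavenging acute phase protein, was at 899 against 1084 CPM in DEN30w and 25.5 against 10.4 CPM in DEN22w, with ratios of -0.27 (95% interval -0.31 to -0.23) in DEN30w and 1.29 (0.85 to 1.75) in DEN22w. Gadd45g, a growth arrest gene, was at -1.07 (95% interval -1.22 to -0.92) in DEN30w and 0.09 (-0.36 to 0.53) in DEN22w, and Saa2 at -1.90 (95% interval -1.92 to -1.87) in DEN30w and -0.70 (-1.21 to -0.21) in DEN22w. All of these were far higher in DEN30w than in DEN22w at the periportal end. The difference ran from 132 against 15.4 CPM for Gadd45g to 8230 against 17.2 CPM for Saa2. Animal, time and section cannot be told apart here.

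The zonation of DEN+CCl4 was set against that of STAM, with the same score and bins in all 4 sections and the difference tested as an interaction. Both DEN+CCl4 sections carry later weeks (30 and 22) than both STAM sections (20 and 16), so model and week cannot be told apart. The score itself sat differently: median scores of the pericentral against the periportal bin were 0.116 and -2.50 in DEN30w and 0.0 and -3.04 in DEN22w, against 2.42 and -1.09 in STAM20w and 2.15 and -1.08 in STAM16w. The bins thus cover different stretches of the score in the models. Spots from the lowest 10% in summed score genes also fell at opposite ends. The pericentral bins of STAM20w and STAM16w held 29 and 13 of them, against 129 and 86 periportally. In DEN30w and DEN22w these were 120 and 140, against 53 and 20. Other cells' markers made up 39.7 and 27.9 UMIs per 10000 pericentrally in STAM20w and STAM16w, against 34.2 and 26.7 periportally. The part of all this in the differences was not tested. Of 13286 genes, 267 (2.01%) had a higher and 207 (1.56%) a lower log2 ratio in DEN+CCl4 by edgeR, 3.57% in all. These counts rest on few sections. Without DEN30w 5 and 1 genes were called, without DEN22w 15 and 8, without STAM16w 866 and 786, and without STAM20w 179 and 289. The STAM sections alone gave 479 higher (3.77%) and 505 lower (3.98%) genes of 12702, 7.75% in all.

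Cd74, Col1a1 and Tmsb10 had higher pericentral to periportal ratios in DEN+CCl4 than in STAM. Of 14 macrophage and monocyte markers, 9 had a higher ratio in DEN+CCl4 and 0 a lower one, and 1 did when either DEN+CCl4 section was left out. DESeq2 called 5, as did edgeR with bins from touching spots, and among spots rich in score genes 2 were called. Cd74 had log2 ratios of 1.27 in DEN30w and 1.36 in DEN22w, against 0.03 in STAM20w and -0.11 in STAM16w (difference 1.35 ± 0.12, adjusted p = 2.43e-06, edgeR), and it remained called without each section in turn. Of 14 stellate markers, 5 had a higher ratio and 0 a lower one, with 0 without DEN30w, 1 without DEN22w, 8 without STAM16w, 3 by DESeq2 and 2 among spots rich in score genes. Col1a1 had ratios of 1.43 in DEN30w and 1.65 in DEN22w, against 0.01 in STAM20w and -0.51 in STAM16w (difference 1.71 ± 0.22, adjusted p = 2.52e-04, edgeR), and without DEN30w its adjusted p was 0.06. Tmsb10 had 1.25 in DEN30w and 1.07 in DEN22w, against -0.32 in STAM20w and -0.24 in STAM16w (difference 1.45 ± 0.14, adjusted p = 4.62e-06, edgeR), but among spots rich in score genes the difference was 0.34. Alcam, an adhesion molecule, had 0.30 in DEN30w and 0.04 in DEN22w, against -1.36 in STAM20w and -0.95 in STAM16w, periportal in STAM and near level in DEN+CCl4, and without DEN30w its adjusted p was 0.07 by edgeR. Spp1 and Fabp5, a fatty acid-binding protein, also had higher ratios by 1.497 ± 0.36 and 1.90 ± 0.41, and both lost the call when either DEN+CCl4 section was left out. The Fabp5 difference was 0.42 without STAM20w.

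Of 30 pericentral hepatocyte genes tested, 9 had a lower ratio in DEN+CCl4 and 0 a higher one, with a median difference of -0.57. The counts were 0 lower and 0 higher without DEN30w, 3 lower and 0 higher without DEN22w, 10 lower and 2 higher without STAM20w, and 17 lower and 3 higher without STAM16w. Among spots rich in score genes 4 were lower and 1 higher, with a median of -0.26. Lhpp, a phosphatase, had ratios of 1.23 in DEN30w and 1.66 in DEN22w, against 2.74 in STAM20w and 2.45 in STAM16w (difference -1.26 ± 0.18, adjusted p = 6.54e-04, edgeR). Akr1c6, a steroid and bile acid reductase, had 0.43 in DEN30w and 0.56 in DEN22w, against 2.33 in STAM20w and 1.40 in STAM16w (difference -1.38 ± 0.19, adjusted p = 6.54e-04, edgeR). Meg3 had 1.70 in DEN30w and 1.88 in DEN22w, against 3.53 in STAM20w and 2.70 in STAM16w, and Lect2 1.35 in DEN30w and 1.64 in DEN22w, against 3.15 in STAM20w and 1.89 in STAM16w. For Lect2 the difference was -0.40 without STAM20w. Nupr1, a stress-response factor, had 0.66 in DEN30w and 0.92 in DEN22w, against 2.71 in STAM20w and 1.72 in STAM16w. Nupr1 and Lhpp met the 50 CPM limit through STAM only. In DEN22w the Nupr1 ratio rests on 50 against 36 UMIs (95% interval 0.28 to 1.58). The Lhpp ratio there rests on 95 against 41 UMIs (1.12 to 2.23). Cyp4a12a, a male-biased fatty acid hydroxylase, had opposite directions in the models, -0.84 in DEN30w and -0.56 in DEN22w, against 2.70 in STAM20w and 0.42 in STAM16w (difference -1.81 ± 0.35, adjusted p = 0.0084, edgeR). Without DEN30w none of Lhpp, Akr1c6, Meg3, Lect2, Nupr1 and Cyp4a12a passed, and without DEN22w Lhpp alone did. Of periportal genes 6 of 28 had a higher ratio and 1 a lower one, and of cholesterol genes 5 of 19 had a higher ratio and 0 a lower one. With either DEN+CCl4 section left out, 1 periportal gene had a higher ratio and 0 a lower one, and 0 cholesterol genes were called. Without STAM16w 18 periportal genes had a higher and 3 a lower ratio, and without STAM20w 3 had a higher and 4 a lower one. Among spots rich in score genes, 9 periportal and 2 cholesterol genes had a higher ratio.

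**Figure D5:**
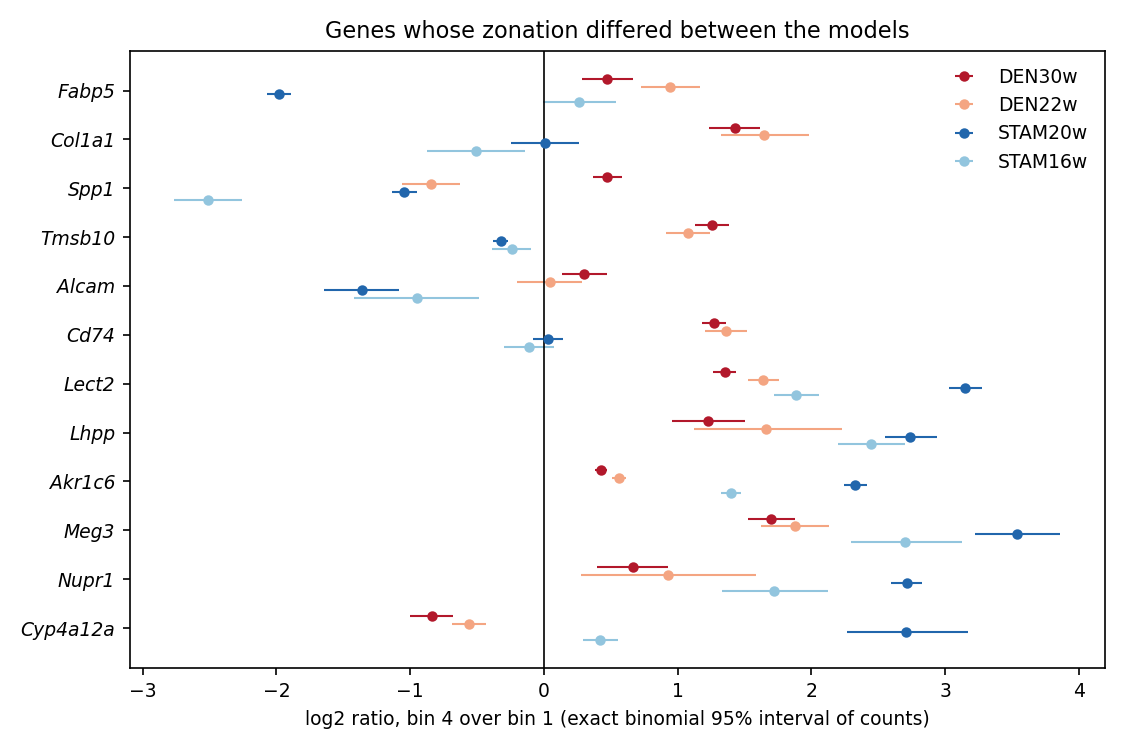
Log2 ratio of bin 4 over bin 1 in DEN30w, DEN22w, STAM20w and STAM16w for the 12 genes named from the interaction between models, with exact binomial 95% intervals that cover counting error only. Cd74, Tmsb10 and Col1a1 lay above 1 in both DEN+CCl4 sections and near or below 0 in both STAM sections, while Lhpp, Akr1c6, Meg3 and Nupr1 were lower in both DEN+CCl4 sections than in both STAM sections.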

How the data were processed

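Visium libraries of 4 fresh frozen liver sections were used. The authors' deposited matrices give raw UMI counts for every gene in every spot; the deposited position tables give array positions. Space Ranger 1.3.1, STAR and the mm10 build are named per the submitters' processing notes, and their settings and gene annotation are not given in the sources used here. Each matrix lists 32285 genes per the file headers, kept apart by identifier; positions and promoters came from RefSeq on GRCm38.p6, the assembly of mm10, by symbol.

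The members, gene lists and tests were chosen with earlier results of these data known. Spots are not replicates. Counts were summed per section and bin. The 8 sums (16 for the interaction with the model) were tested with edgeR 4.0.16 (R 4.3.3, quasi-likelihood, TMM, filterByExpr, section as a block, Benjamini-Hochberg at 0.05). A simulation was also run, with the spread taken from the fit to the real sums. It drew the sums independently, so it could not show whether bins of the same section can be treated as separate sums. With 2 sections, the block pairs bins of the same section, which is the design. SE is the log2 difference over the square root of F. Kept spots held 34880049 and 22471682 UMIs in DEN30w and DEN22w, and 40008457 and 20700642 in STAM20w and STAM16w. Intervals of ratios are exact binomial at 95% and cover counting error only. Named genes were the 15 per direction with the largest difference past the threshold, of the same sign in both sections and at 50 CPM or more in the higher bin of both. For the middle contrast the same limits held, for the interaction 6 per direction at 50 CPM or more in both sections of a model, between times 5 per direction by difference of ratio, plus list members. The 40 lists held 541 genes, of which 540 were found and 517 passed the low-count filter. Alternatives were DESeq2 1.42.0, no low-count filter, no block, score genes kept in library sizes, other score genes, depths, spot selections and divisions of the score, single sections left out, and, chosen after seeing the data, no TMM and spots poor in other cells' markers. Tissue images were not used.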

Additional observations from a re-analysis of the deposited data

Results flagged for a closer look

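Several genes drew attention because their zonation differed between the models in the interaction test (edgeR, adjusted p under 0.05), as DEN+CCl4 minus STAM on the log2 scale. Model and week cannot be told apart in that test. Those with a higher ratio in DEN+CCl4 were Fabp5 (1.90), Col1a1 (1.71), Spp1 (1.497), Tmsb10 (1.45), Alcam (1.41), Cd74 (1.35), Col1a2 (1.22) and Aldh1b1 (0.74). For Aldh1b1, a periportal gene in DEN+CCl4, this means a shallower gradient there. Those with a lower ratio were Cyp4a12a (-1.81), Nupr1 (-1.72), Meg3 (-1.42), Akr1c6 (-1.38), Lhpp (-1.26), Lect2 (-1.12), Orm3 (-0.87), Glul (-0.80), Upp2 (-0.56) and Got1 (-0.52). Orm3, Upp2 and Got1 were periportal genes, so their lower ratio is a steeper gradient in DEN+CCl4. Of these 18 genes, Cd74 and Tmsb10 passed without each section in turn. Without DEN30w the other 16 did not pass, among them Glul (adjusted p = 0.43), Got1 (0.37), Orm3 (0.21) and Col1a2 (0.22). Without DEN22w Alcam, Col1a1 and Lhpp passed too. Upp2 and Got1 did not pass without STAM16w, nor Fabp5 and Lect2 without STAM20w.

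Between DEN30w and DEN22w, 6 of the 10 genes named for the size of their difference had log2 ratios of opposite sign in the sections. Opposite signs were not rare: 2406 of 3093 genes shared a sign, and in 37 genes the signs were opposite with both counting intervals off 0. Spp1, Lcn2 and Mt1 were among those 37, while for Marco, Mt2 and Gadd45g 1 of the intervals spanned 0. The difference was not tested, since each time is 1 section. The DEN30w minus DEN22w difference of log2 ratios was 1.498 for Marco, 1.32 for Spp1, -1.56 for Lcn2, -1.42 for Mt2, -1.38 for Mt1 and -1.16 for Gadd45g. With bins drawn from touching spots these 6 kept their sign, with -0.84 for Lcn2 the most reduced.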

How the results depend on the processing

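The count of genes higher and lower between the outer bins stayed within 1.5 times of 1366 and 1419 with no low-count filter, score genes kept in library sizes, 4 score genes, spots of at least 2000 UMIs, touching spots, 3 bins, 8 bins, outer bins alone and depth-matched spots. It moved to 500 and 746 with DESeq2, 594 and 611 among spots rich in score genes, 424 and 590 among spots poor in other cells' markers, 3292 and 555 without TMM, and 0 and 0 with no replicate block, where the levels of the 2 sections enter the spread. Of 480 comparisons of the 30 named genes with alternatives, 448 were counted as unchanged, 30 lost the call with no replicate block, 2 moved and 0 reversed. The comparisons in a single section made no call. They counted as unchanged when the ratio of that section was within the SD of the 2 section ratios. With 2 sections that outcome is nearly fixed in advance. By size alone, the counts at least 2-fold higher and lower in both sections, 22 and 27, were 26 to 51 and 30 to 44 in a single section.

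The middle contrast was weaker: against 7 higher and 0 lower it gave 0 higher with DESeq2 and with no replicate block, 20 and 5 with no filter, 14 and 6 among spots rich in score genes, 2 and 14 from touching spots, and 2 lower among spots poor in other cells' markers. Cyp2a4 reversed to -0.0327 among spots rich in score genes and to -0.0495 among spots poor in other cells' markers, where Hbb-bs (-0.0130) and Hba-a2 (-0.0359) reversed too. The interaction counts, 267 higher and 207 lower, were 55 and 81 with DESeq2, 451 and 423 with no filter, 0 and 0 with no replicate block, 154 and 110 from touching spots, 61 and 34 among spots rich in score genes, and 522 and 99 without TMM. Without 1 section they ranged from 5 to 866 higher and from 1 to 786 lower. Between times, 89 genes had intervals apart with the ratio higher in DEN30w and 289 lower; from touching spots these were 192 and 160, and among spots rich in score genes 221 and 93, so the balance between directions is not stable, and Mup21 reversed to -0.3145. The cause of these changes was not tested. Depth limits the rare genes, such as Wnt ligands and Lgr5.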
